A study of Mus musculus with 14 samples.

Results

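The genes described here are 10 neighbours of Crebbp on mouse chromosome 16, namely Nlrc3, Slx4, Dnase1, Trap1 and Adcy9 beside Crebbp, and Nubp1, Dexi, Clec16a, Socs1 and Litaf further along the chromosome. Every probe set of the array annotated to one of these genes alone was taken, which gave 19 of the 45101 probe sets. Of these, 13 probe sets for 9 genes had a mean log2 intensity above 6.43, the median level on the array without its controls, and entered the test, while Socs1 fell below it. The question was whether Clec16a changes alone or together with the genes around it when Crebbp is lost. Clec16a was selected on its measured change, an intensity already known to be higher in KO and HET arrays, so its values are a description and carry no test. The other 9 genes lie near Crebbp or Clec16a and were chosen with earlier results of these data known. They are not all genes of the region, since Tvp23a and Ciita, for example, lie between Nubp1 and Dexi and were left out.

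Crebbp encodes the CREB-binding protein, a lysine acetyltransferase that acetylates histones and serves as a coactivator for many transcription factors. Genes that lie side by side can share enhancers and chromatin state, and the stretch holding Ciita, Dexi, Clec16a and Socs1 is known in humans for variants associated with autoimmune disease. CLEC16A takes part in endosomal trafficking, autophagy and the removal of mitochondria, and SOCS1 damps cytokine signalling through JAK kinases.

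Germinal centre B cells, sorted as B220+CD95+PNA+ from the spleens of individual mice, were profiled with 1 Affymetrix Mouse Genome 430 2.0 array per mouse. All 14 mice carried the Cg1-Cre deletor, had a C57BL/6x129Sv background, were 8 to 12 weeks old, and received sheep red blood cells as the immunogen (days 0 and 5) before spleens were taken at day 12. The wild-type group (WT, Crebbp+/+ Cg1-Cre) held 4 mice, 1 of them male, the heterozygous group (HET, Crebbpfl/+ Cg1-Cre) 5 mice with 2 males, and the knockout group (KO, Crebbpfl/fl Cg1-Cre) 5 mice with 3 males. The labels do not give the share of sorted cells that had recombined, and the values are means over recombined and other cells. DNA close to a floxed Crebbp allele is inherited with it, so a change that follows the loss of Crebbp and one that follows the strain origin of the linked segment cannot be told apart in this design.

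The gene that carried the difference, its nearest neighbour and the most distant of the 10 genes are shown by the sequence before their start sites, taken from RefSeq for GRCm38.p6. Each window runs from 250 bases before to 50 bases after the annotated start and is written 5′ to 3′ along the gene. Capitals mark TGACG and TGACGTCA (the short and the full form of the cAMP response element), CCAAT and GGGCGG, searched on both strands.
Clec16a promoter window, chr16:10545089-10545388, plus strand: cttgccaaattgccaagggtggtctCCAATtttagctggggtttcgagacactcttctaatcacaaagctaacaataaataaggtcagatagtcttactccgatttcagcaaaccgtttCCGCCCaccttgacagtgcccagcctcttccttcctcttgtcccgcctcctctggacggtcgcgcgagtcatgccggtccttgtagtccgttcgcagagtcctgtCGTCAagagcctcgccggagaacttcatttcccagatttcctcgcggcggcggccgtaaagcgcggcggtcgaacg
Dexi promoter window, chr16:10543005-10543304, minus strand: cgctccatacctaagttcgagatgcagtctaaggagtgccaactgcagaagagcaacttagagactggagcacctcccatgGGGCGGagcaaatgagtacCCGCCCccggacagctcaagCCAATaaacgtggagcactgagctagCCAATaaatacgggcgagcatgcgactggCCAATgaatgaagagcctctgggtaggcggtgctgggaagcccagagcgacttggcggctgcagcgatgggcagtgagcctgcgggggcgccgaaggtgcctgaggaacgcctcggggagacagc
Litaf promoter window, chr16:10993072-10993371, minus strand: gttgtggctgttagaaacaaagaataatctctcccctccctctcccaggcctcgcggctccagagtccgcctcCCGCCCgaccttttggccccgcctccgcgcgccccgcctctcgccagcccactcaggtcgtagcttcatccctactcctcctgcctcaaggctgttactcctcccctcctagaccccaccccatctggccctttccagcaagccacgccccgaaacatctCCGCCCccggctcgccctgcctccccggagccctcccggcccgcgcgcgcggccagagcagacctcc
Dexi and Clec16a are transcribed away from each other, with 2.285 kb between their start sites. The Clec16a window held 1 TGACG, 1 CCAAT and 1 GGGCGG, on one strand or the other, and no full element. The Dexi window held 3 CCAAT and 2 GGGCGG, and the Litaf window held 2 GGGCGG and none of the other letters. The full element TGACGTCA, of which each strand contains TGACG, occurred in 1 of the 11 windows of the 10 genes, that of Trap1, and in 1.79% of all 32851 RefSeq windows. TGACG occurred in 3 of the 11 windows (Clec16a, Trap1 and Adcy9) against 20.8% of all windows, CCAAT in 7 against 37.4%, and GGGCGG in 6 against 35.7%. Dnase1 alone supplies a pair of windows, which overlap, and the same CCAAT is counted in both. A match is only a run of letters and no binding was measured.

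Nearest to Crebbp lie Trap1, Dnase1, Adcy9, Slx4 and Nlrc3, whose starts are 136, 176, 207, 212 and 237 kb from that of Crebbp. The second cluster lies 6.2 to 6.8 Mb away, with Nubp1 at 6.20 Mb, Clec16a at 6.33 Mb, Socs1 at 6.57 Mb and Litaf at 6.78 Mb. Between Crebbp and Clec16a the array measured 46 other genes.

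B cell and germinal centre markers were bright in all arrays. The 5 measured B cell markers averaged 12.0 to 12.1 on the log2 scale and the 7 germinal centre markers 11.9 to 12.3 in single arrays, while T cell markers averaged 5.51 to 6.45 with overlapping ranges in the 3 groups. Myeloid markers averaged 6.48 to 7.31 in WT, 6.42 to 7.25 in HET and 6.44 to 7.17 in KO, with Lyz2 ranging from 6.41 to 10.32 between arrays. The array of KO 3 stood apart, with a median correlation with the other arrays of 0.975 against 0.983 to 0.988. It gave the highest KO value on 10 of the 17 probe sets other than those of Clec16a, and results are therefore also given without it. The 5 plasma cell markers averaged 10.2 to 10.4 in WT, 10.2 to 10.5 in HET and 10.1 to 10.4 in KO. In KO limma called 0 of them, and 2 had an unadjusted p under 0.05, as did 1243 of all 10225 tested genes. In both KO and HET 1 of the 5 changes against WT was positive, that of Sdc1, and 4 were negative. The median change was -0.15 in KO and -0.15 in HET. Sdc1, chosen after its values were seen, ran from 7.67 to 8.14 in WT, 7.93 to 8.97 in HET and 8.45 to 9.00 in KO, with a KO change of 0.81 and a HET change of 0.52. The part of plasma cell RNA in the Clec16a values was not tested. Of the 7 tested germinal centre markers 1 was called in KO against WT, Rgs13, which was lower and is named after its values were seen. No other marker list had a call, and 1.38% of all 10225 tested genes were called in KO. The 4 probe sets of Crebbp were 0.30 to 0.86 lower in KO than in WT. In limma 1436983_at (adjusted p = 0.000822) and 1434633_at (adjusted p = 0.0497) passed. The brightest, 1435224_at (adjusted p = 0.0719), and 1459804_at (adjusted p = 0.462) did not. Without KO 3 only 1436983_at passed in limma, with a KO change of -0.91 (adjusted p = 0.00210). The change of 1434633_at was then -0.40 (adjusted p = 0.102), and that of 1435224_at -0.31 (adjusted p = 0.119). The HET changes of these 4 probe sets against WT ran from -0.34 to -0.12, and none passed.

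Clec16a stood higher in steps with the number of floxed Crebbp alleles on its brighter probe set, 1455326_at. Its log2 intensity was 6.86, 6.86, 7.16 and 6.97 in WT 1 to 4, which gives 6.96 ± 0.14 (SD, n = 4). In HET 1 to 5 it was 7.86, 7.84, 7.58, 7.70 and 7.72, or 7.74 ± 0.11 (SD, n = 5). In KO 1 to 5 it was 7.74, 8.14, 8.04, 8.45 and 8.39, or 8.15 ± 0.29 (SD, n = 5). Every HET and every KO array lay above every WT array, and 4 of the 5 KO arrays lay above all HET arrays, KO 1 being the exception. Among all tested probe sets 2.34% had every KO array above every WT array, and 0.759% had every HET array above every WT array. With sex as a covariate the KO mean was 1.20 log2 units (SE 0.14) above WT, a 2.30-fold difference, and the HET mean was 0.78 (SE 0.13) above WT, a 1.72-fold difference. The step from HET to KO was 0.42 (SE 0.13), so that the HET difference was 65.0% of the KO difference. Of the 22518 tested probe sets 13 had a larger positive KO change and 6 a larger positive HET change. In RNA from sorted bulk cells, more cells with the transcript and more transcript per cell cannot be told apart. Without KO 3 the KO change was 1.25 (SE 0.15), and over the 14 leave-one-out fits it ranged from 1.09 to 1.28. Female mice alone gave a KO difference of 1.29 and a HET difference of 0.75.

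The second Clec16a probe set, 1453635_at, did not show these steps. Its log2 intensity was 5.75, 6.12, 6.15 and 5.72 in WT, 5.71, 6.23, 5.92, 5.91 and 6.05 in HET, and 5.72, 5.55, 6.29, 6.12 and 6.22 in KO. The 3 groups overlapped, with means of 5.93 ± 0.23 (SD, n = 4), 5.96 ± 0.19 (SD, n = 5) and 5.98 ± 0.33 (SD, n = 5). The change was 0.15 (SE 0.14) in KO and 0.08 (SE 0.13) in HET. This probe set is below the level used for testing, where RMA compresses changes, and where the probe sets lie within the Clec16a transcripts was not analysed here.

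**Figure D1:**
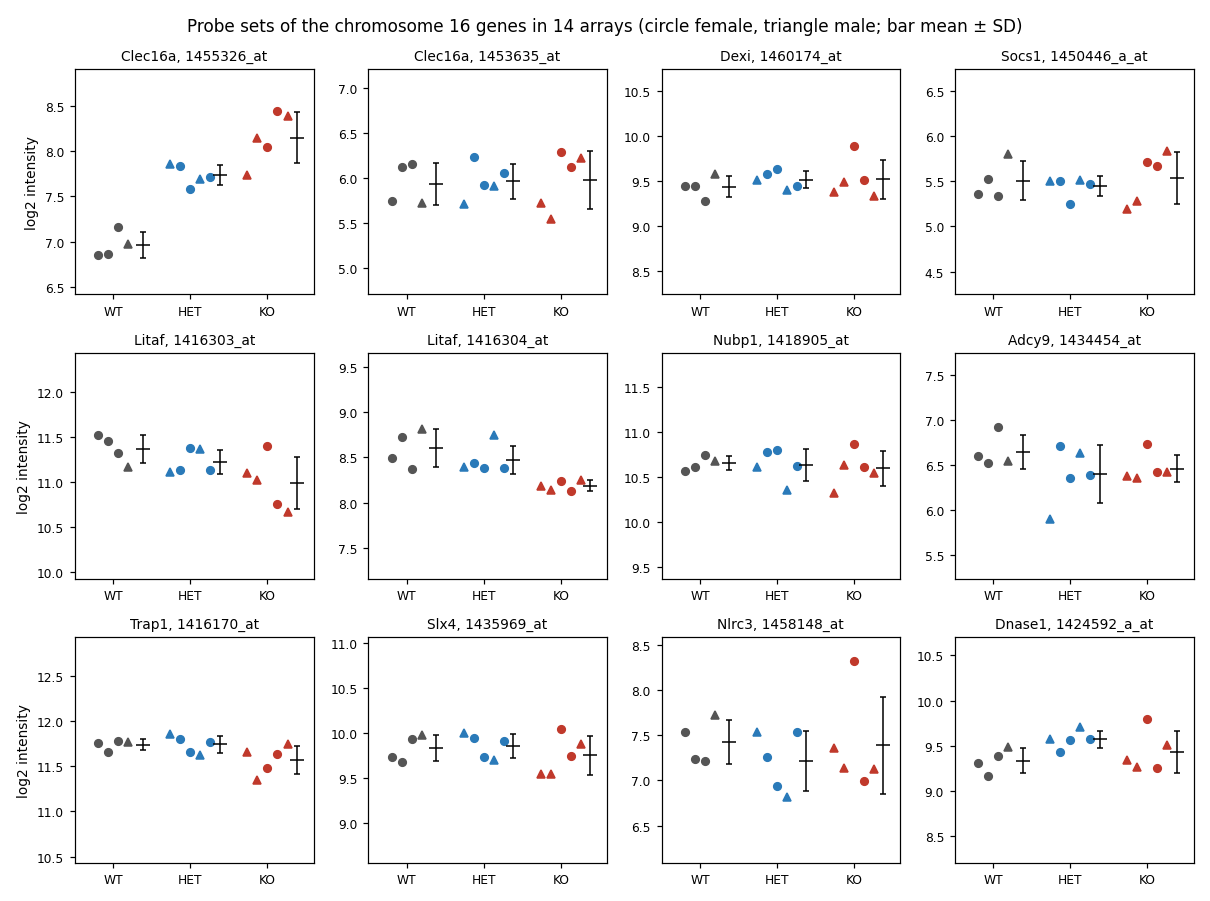
Log2 intensity (vertical axis, with the same span in each panel) of 12 probe sets in the 4 WT, 5 HET and 5 KO arrays. Circles are female and triangles male mice, and bars are the mean ± SD. Clec16a 1455326_at separates WT from HET and KO, with means of 6.96, 7.74 and 8.15, while the KO arrays of Litaf 1416304_at lie below all WT and HET arrays and the other panels overlap between groups.

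Neither gene beside Clec16a had a KO or HET change that passed the test. Dexi, whose product was found through its induction by dexamethasone, had 9.45, 9.45, 9.28 and 9.57 in WT, 9.51, 9.58, 9.64, 9.40 and 9.45 in HET, and 9.38, 9.49, 9.88, 9.51 and 9.33 in KO. The groups overlapped, and KO 3 alone gave the highest value. The KO change was 0.12 (SE 0.11, limma adjusted p = 0.840), with a 95% interval from -0.11 to 0.34. It depended on single mice, with -0.00077 (SE 0.09) without KO 3, 0.24 without WT 4 and 0.30 in females alone, and no fit reached the threshold. The HET change was 0.09 (SE 0.10), with an interval from -0.13 to 0.31.

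Socs1, the inhibitor of JAK kinases that lies on the other side of Clec16a, was dim, at 5.36, 5.52, 5.33 and 5.81 in WT. It had 5.50, 5.50, 5.25, 5.51 and 5.47 in HET and 5.19, 5.28, 5.72, 5.67 and 5.84 in KO, so that the groups overlapped. It was not part of the main test. In the fit of all probe sets its KO change was 0.02 (SE 0.15, limma adjusted p = 1.00), with an interval from -0.30 to 0.34. At this brightness RMA compresses changes, and a small difference in Socs1 was not detectable here.

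Nubp1, an iron-sulphur cluster assembly factor 133 kb from Clec16a, was measured by 3 tested probe sets. The brightest had WT values from 10.57 to 10.74, HET values from 10.35 to 10.80 and KO values from 10.32 to 10.86. The KO changes of the 3 probe sets were 0.01, 0.01 and -0.05 (SE 0.10 to 0.13), and the HET changes were 0.01, 0.08 and 0.14. None passed in limma, and for the brightest the 95% interval of the KO change ran from -0.21 to 0.22.

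Litaf was the 1 gene among the 9 neighbours with a probe set that passed the test, and it was lower rather than higher. LITAF is a membrane protein of late endosomes and lysosomes. On probe set 1416304_at the WT values were 8.50, 8.73, 8.37 and 8.82, and the HET values 8.40, 8.44, 8.38, 8.75 and 8.38. The KO values were 8.19, 8.14, 8.24, 8.13 and 8.25. All 5 KO arrays lay below all WT and all HET arrays, with a KO SD of 0.06. KO minus WT came to -0.46 (SE 0.10, limma adjusted p = 0.0418 over 22518 probe sets), which puts KO at 72.5% of WT. The HET change was -0.16 (SE 0.09, adjusted p = 1.00), and KO against HET gave -0.31 (SE 0.09, adjusted p = 0.503).

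The call for Litaf was narrow. It held in 4 of the 14 leave-one-out fits, with limma adjusted p from 0.0378 to 0.187, and in 1 of 9 other settings, with adjusted p from 0.0409 to 0.347. Without KO 3 the change was -0.52 (adjusted p = 0.0400), and without WT 4, WT 2, KO 4 or WT 1 the adjusted p was 0.187, 0.117, 0.0904 or 0.0822. The other fits without the call were those that left out HET 2, HET 3, HET 5, KO 1, KO 2 or KO 5, with adjusted p from 0.0584 to 0.0825. The change lay between -0.52 and -0.35 in all of these fits and settings. On the brighter Litaf probe set, 1416303_at, the WT values were 11.52, 11.46, 11.33 and 11.17, the HET values 11.11, 11.13, 11.37, 11.37 and 11.13, and the KO values 11.10, 11.02, 11.40, 10.76 and 10.67. Here KO 3 lay among the WT values and the other 4 KO arrays lay below them. This probe set was not called, with a KO change of -0.34 (SE 0.14, limma adjusted p = 0.404), or without KO 3 of -0.47 (SE 0.13, adjusted p = 0.122).

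Among all 12 tested probe sets of the 8 tested neighbours, that of Litaf was the 1 called in KO against WT. The background was 0.893% of all tested probe sets called in either direction, and 0.391% called lower. The median KO change over the 12 probe sets was -0.06, beside 0.00 over all tested probe sets, with 4 positive and 8 negative, where 50.5% of all were negative. An unadjusted p under 0.05 was found for 2 of the 12, both Litaf, where 9.85% of all tested probe sets had one. The KO arrays lay wholly below the WT arrays for 1 of the 12, against 2.68% of all. In HET against WT limma called 0 of the 12 and 0% of all tested probe sets, and an unadjusted p under 0.05 was found for 0 of the 12 and 451 of all (2%). In KO against HET it called 0 of the 12 and 0% of all, with 1 of the 12 (Litaf) and 4.62% of all at an unadjusted p under 0.05. There 3 of the 12 changes were positive and 9 negative, with a median of -0.11 beside -0.00028 over all tested probe sets. The same Litaf probe set was the 1 of 12 whose KO arrays lay wholly below the HET arrays, against 0.524% of all. The 3 comparisons share arrays with one another.

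**Figure D2:**
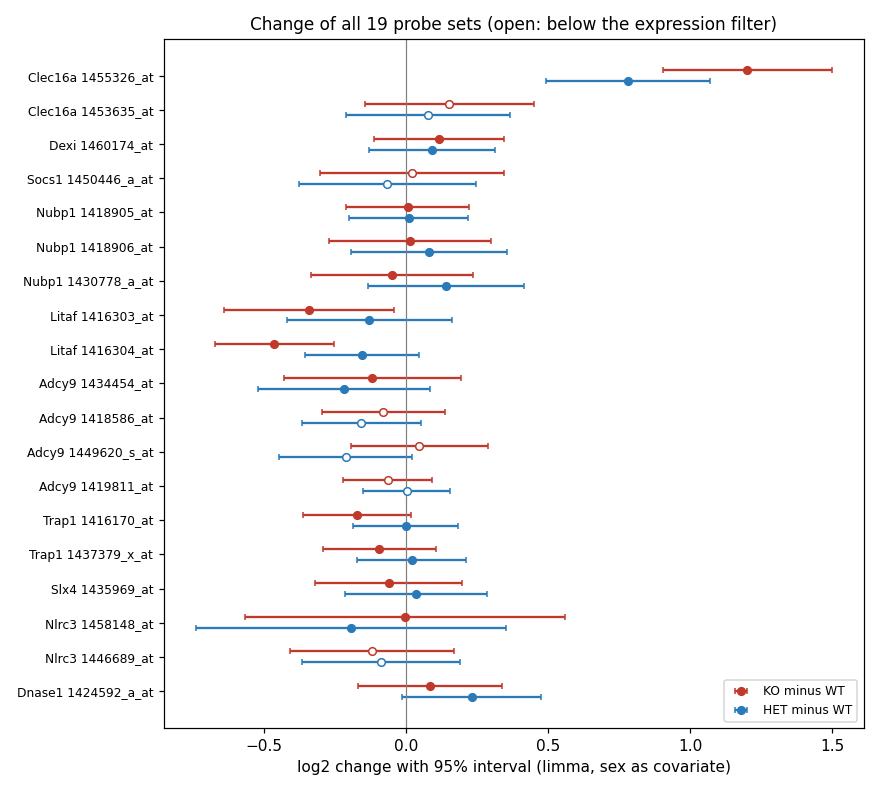
Log2 change of each of the 19 probe sets (rows) in KO against WT (red) and HET against WT (blue), with limma 95% intervals on the horizontal axis. Open points are probe sets below the level for testing. Only 1455326_at of Clec16a lies far to the right, at 1.20 and 0.78, and the highest upper bound of any neighbour in KO is 0.56.

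The genes beside Crebbp itself gave no called probe set in any of the 3 comparisons. Adcy9, an adenylyl cyclase that makes cAMP, is the next measured gene on one side of Crebbp. Its brightest probe set, just above the level for testing, had WT values from 6.52 to 6.92, HET values from 5.90 to 6.71 and KO values from 6.36 to 6.73. The KO change was -0.12 (SE 0.14, limma adjusted p = 0.905) and the HET change -0.22 (SE 0.14). Of its 3 dimmer probe sets, 1418586_at had HET values from 5.43 to 5.61, below the WT values from 5.62 to 5.71. The KO values, 5.40 to 5.91, overlapped both, and the share of dim probe sets with HET wholly below WT was not counted. The HET change of 1418586_at, -0.16 (SE 0.10), had an adjusted p = 1.00 in the fit of all probe sets.

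Trap1, a mitochondrial chaperone of the HSP90 family, is the next measured gene on the other side. It was bright, with WT values from 11.66 to 11.78, HET values from 11.63 to 11.85 and KO values from 11.35 to 11.74 on its brighter probe set. The KO change was -0.17 (SE 0.09, adjusted p = 0.567), with a 95% interval from -0.36 to 0.02, and the HET change was 0.00 (SE 0.09). The dimmer probe set gave -0.09 (SE 0.09) in KO.

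Slx4, a scaffold for DNA repair nucleases, had WT values from 9.68 to 9.97, HET values from 9.70 to 10.003 and KO values from 9.54 to 10.05. Its KO change was -0.06 (SE 0.12, adjusted p = 0.953), and -0.16 (SE 0.12) without KO 3. Dnase1, a secreted endonuclease, had WT values from 9.16 to 9.48, HET values from 9.43 to 9.70 and KO values from 9.25 to 9.80. In HET 4 of the 5 arrays lay above all WT arrays, a count not made over all tested probe sets. The HET change was 0.23 (SE 0.11, adjusted p = 1.00), with a 95% interval from -0.01 to 0.47. Its KO change was 0.08 (SE 0.12, adjusted p = 0.922), and -0.07 (SE 0.08) without KO 3. RefSeq lets the ends of Dnase1 and Trap1 overlap on opposite strands, and whether a probe set lies there was not analysed here.

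Nlrc3, an inhibitory member of the NOD-like receptor family, had the largest SD of the 19 probe sets in each group on its tested probe set. There WT values ran from 7.22 to 7.72, HET values from 6.81 to 7.54 and KO values from 6.996 to 8.32. KO 3 gave the 8.32, and the other 4 KO arrays lay between 6.996 and 7.36. The KO change was -0.0039 (SE 0.26, limma adjusted p = 0.998) with KO 3 and -0.34 (SE 0.19, adjusted p = 0.540) without it. Nlrc3 is also made by T cells. The mean of the 7 measured T cell markers, of which 2 lay above the level for testing, was 5.60 to 5.96 in WT, 5.51 to 6.16 in HET, 5.94 in KO 3 and 5.52 to 6.45 in the other KO arrays, and their part in the Nlrc3 values was not tested.

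The other genes of the region were listed by their order in RefSeq, leaving out Crebbp and the 10 genes. Beside Crebbp, 22 genes were measured and 18 tested, with 0 called by limma in KO, 1 at an unadjusted p under 0.05 and a median KO change of -0.0022. Between Crebbp and Clec16a, 30 of 43 genes were tested, with 0 called, 4 at an unadjusted p under 0.05 and a median of -0.01. Among the 30 genes nearest to Clec16a, 20 were tested, with 0 called, 3 at an unadjusted p under 0.05, 8 positive and 12 negative changes and a median of -0.05. Over these lists, which overlap, limma called 0 of 45 tested genes in KO, with 5 at an unadjusted p under 0.05, and the KO changes ran from -0.81 to 0.34. The background was 1.38% of all 10225 genes called, each by its brightest probe set, and their median change was 0.00. An unadjusted p under 0.05 was found for 1243 of the 10225 genes.

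Around Clec16a the smallest p-values belonged to genes with lower values in KO. Snx29, a sorting nexin, had 9.03 ± 0.21 (SD, n = 4) in WT, 8.55 ± 0.26 (SD, n = 5) in HET and 8.25 ± 0.43 (SD, n = 5) in KO. Its KO change was -0.81 (SE 0.21, limma adjusted p = 0.105), and it was called in 1 of the 14 leave-one-out fits. Tvp23a, a Golgi membrane protein gene between Nubp1 and Ciita, had a KO change of -0.38 (SE 0.10, adjusted p = 0.125). Ciita, the transactivator of MHC class II genes that lies next to Dexi, had -0.34 (SE 0.10, adjusted p = 0.202). In HET these genes had -0.50 (SE 0.20), -0.16 (SE 0.10) and -0.16 (SE 0.10), none of which passed. Beside Crebbp the smallest p-values were those of Nudt16l1 at 0.27 (SE 0.11, adjusted p = 0.389), Mgrn1 at -0.20 (SE 0.09) and Coro7 at -0.19 (SE 0.10).

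**Figure D3:**
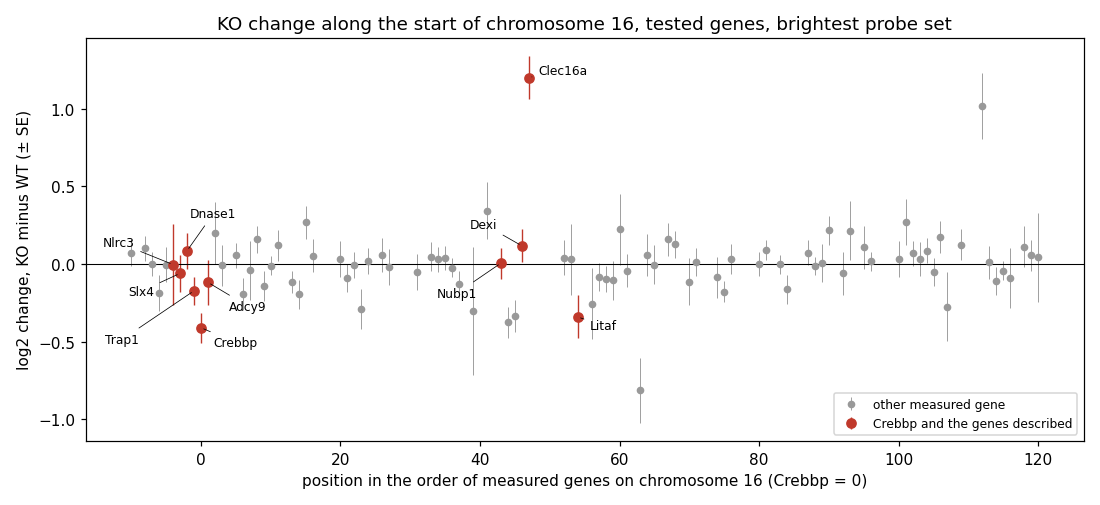
Log2 change in KO against WT with its SE (vertical axis) of the tested genes at the start of chromosome 16, each by its brightest probe set, in their order along the chromosome with Crebbp at 0 (horizontal axis). Clec16a, 47 places from Crebbp, stands at 1.20, and the grey point near 1.0 is Tmem191c, 112 places from Crebbp. The other tested genes listed as nearest to Clec16a ran from -0.81 (Snx29) to 0.34 (Emp2).

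Over the rest of chromosome 16, 4 of 281 tested genes were called, all higher in KO, beside 1.38% of all genes called in either direction and 0.763% called higher. A share this near the background is no result about the chromosome. Tmem191c had a KO change of 1.02 (SE 0.21, limma adjusted p = 0.0439) and kept its call in 3 of the 14 leave-one-out fits. Slc49a4 had 0.67 (SE 0.12, adjusted p = 0.0181) and kept its call in 11. Cbr1, a carbonyl reductase, had 0.71 (SE 0.12, adjusted p = 0.0159) and kept its call in 13. Dcbld2, named after its values were seen, had 0.57 (SE 0.12, adjusted p = 0.0442) and kept its call in 2. In this order the 4 genes lie 112, 288, 544 and 414 places from Crebbp among the measured genes, against 47 for Clec16a.

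Partners or family relatives of the members, Dexi excepted, were counted beside the 1.38% of all genes called in KO. Of all 10225 genes, 1243 had an unadjusted p under 0.05 in KO. Of the partners of CLEC16A and genes of mitophagy, 26 were tested and limma called 0 in KO, with 2 at an unadjusted p under 0.05 and a median change of 0.02. Gabarapl1 (0.41, SE 0.14, limma adjusted p = 0.253) and Bnip3 (0.36, SE 0.16) had the smallest p-values. Among the other SOCS genes 0 of 6 were called, 0 of them at an unadjusted p under 0.05, with Socs2 at 0.30 (SE 0.34). There were 0 calls among 13 nuclease partners of SLX4, 8 HSP90 relatives and mitochondrial chaperones, 8 iron-sulphur assembly genes, 6 DNases and 2 adenylyl cyclases, and 0 of these genes had an unadjusted p under 0.05. Of the genes of LITAF relatives and late endosomes 0 of 9 were called, with 1 at an unadjusted p under 0.05, with Nedd4, a ubiquitin ligase known to bind LITAF, at 0.88 (SE 0.22, adjusted p = 0.0924). Nedd4 passed in 1 of the 14 leave-one-out fits. Of the NLR family 1 of 6 was called, Naip5, a sensor of bacterial flagellin, at 0.83 (SE 0.17, adjusted p = 0.0389), which kept its call in 3 of those fits. In that family 4 of 6 genes had an unadjusted p under 0.05 and 4 of 6 changes were negative, among them those of Nod1 (-0.59, SE 0.24, adjusted p = 0.392) and Ciita.

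The tested neighbours and all other genes were also ordered by how closely their values followed those of Clec16a. Likeness was the root mean square difference of the values relative to the WT mean over the 14 arrays, so that a smaller figure means a closer course. It was 0.24 log2 units for Gfi1, a repressor of haematopoietic cells, 0.29 for Thyn1, 0.30 for Ppm1e, 0.32 for Dcun1d4 and 0.32 for Poglut2. The median over 10224 genes was 0.88. Of the 8 tested neighbours Dnase1 came closest, at rank 1059 with 0.77, followed by Dexi at rank 2415 with 0.82, Slx4 at rank 5953 with 0.90 and Nubp1 at rank 6311 with 0.90. Trap1 was at rank 7990 with 0.95, Nlrc3 at rank 9499 with 1.04, Adcy9 at rank 9647 with 1.06 and Litaf at rank 9950 with 1.14. Since the measure uses the values for which Clec16a was selected, these figures are a description.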

How the data were processed

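The authors deposited log2 intensities made with RMA, per the submitters' processing notes; its version is not given in the sources used here. RMA normalises by quantiles, which hides a shift of most genes, and compresses changes of dim probe sets. No detection calls were used. Of 45101 probe sets 64 are controls, and 34945 of the rest were annotated to 1 gene. Groups and sex came from the labels, and the number of arrays limits the precision.

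Probe sets with a mean above 6.43, the median of the non-control ones (22518), were tested with limma 3.58.1 in R 4.3.3 (lmFit, eBayes) on the 14 arrays together, with terms for group and sex. Benjamini-Hochberg adjustment ran over all of these, with a threshold of 0.05. Dim probe sets were read from a fit of all 45037. Gene lists use each gene's brightest probe set. The members and lists were chosen with earlier results of these data known. Named genes are the 10 members, Crebbp, up to 3 genes per list with the smallest p in KO against WT, and the 5 most like Clec16a. Gene order is that of RefSeq for GRCm38.p6. The fit was tested on simulated data.

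Alternatives were the filter, 1 probe set per gene, normalisation, sex, variance options, array weights, the groups fitted, a replicate block and leaving out each array. Same-numbered WT and HET arrays deviated together in all 4 pairs (residual correlation 0.24 to 0.44), those of KO in only some pairs. Only group means were removed before these correlations, so differences by sex remain in them.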

Additional observations from a re-analysis of the deposited data

Results flagged for a closer look

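In 7 of 57 groups of member values 1 array stood far from the rest, where about 2.85 would be set apart by chance at 5% each. KO 3 was the high array in 3 of them. It gave 8.32 for Nlrc3 1458148_at against 6.996 to 7.36 in the other KO arrays. It gave 10.28 for Nubp1 1418906_at against 9.67 to 9.77, and 6.73 for Adcy9 1434454_at against 6.36 to 6.42. WT 2 was low for Trap1 1416170_at, at 11.66 against 11.76 to 11.78, and for the very dim Adcy9 1419811_at, at 3.28 against 3.48 to 3.504. HET 3 was low for Socs1 1450446_a_at, at 5.25 against 5.47 to 5.51. HET 4 was high for Litaf 1416304_at, at 8.75 against 8.38 to 8.44 in the other HET arrays, which brings it among the WT values.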

How the results depend on the processing

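The Clec16a change kept its direction under the alternatives other than the stricter filter, which left it out of the test. Of 735 values of single genes under alternatives, 658 kept direction and, except for Clec16a, side of the threshold. For Clec16a, which carries no test, a value counted as kept if it moved by less than the larger group SD. Of the 735, 18 (all Litaf) lost the threshold and 59 changed sign, for the genes named below. The cause was not tested. The count of member probe sets called in KO against WT besides Clec16a, 1 (Litaf), became 0 with a stricter filter and with 1 probe set per gene, which leave that probe set out of the test. It also became 0 with no expression filter, repeated quantile normalisation, no sex covariate, females alone, trend and robust options, array weights, only the 2 groups compared and the replicate block (adjusted p = 0.0901), with 0 to 1 without single arrays. Over all probe sets the KO count of 201 was 112 with the stricter filter (fewer tested), 309 without sex, 15 in females and 46 with only the 2 groups compared (94 to 223 without single arrays). The HET count of 0 was 1 with the stricter filter, 4 with array weights and 1 with the replicate block (0 to 1). The KO against HET count of 0 was 27 with 1 probe set per gene, 1 after repeated quantile normalisation, 7 without sex, 3 with only the 2 groups compared and 4 with the replicate block (0 to 8). The block pairs arrays by number, and 10 of 13 pairs correlated above 0.1; in HET against WT no member was called with or without it.

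Signs turned in KO against WT for Nubp1 (-0.057 without sex, -0.011 with only the 2 groups compared, -0.023 with the replicate block), Slx4 (0.11 in females) and Nlrc3 (0.33 in females, 0.0036 with only the 2 groups compared). In HET against WT they turned for Nubp1 (-0.017 without sex) and Trap1 (0.0039 after repeated quantile normalisation, 0.00084 with median centring, 0.0019 without sex, 0.012 in females, 0.037 with array weights). In KO against HET they turned for Dexi (-0.029) and Nlrc3 (-0.036) with array weights, Nubp1 (0.0021 after quantile normalisation, 0.0092 with only the 2 groups compared) and Slx4 (0.034 in females). Leaving out single arrays gave KO changes from -0.00077 to 0.24 for Dexi, -0.058 to 0.10 for Nubp1, -0.16 to 0.044 for Slx4, -0.34 to 0.21 for Nlrc3 and -0.066 to 0.16 for Dnase1. HET changes ran from -0.032 to 0.091 for Nubp1, -0.027 to 0.031 for Trap1 and -0.017 to 0.13 for Slx4. KO against HET ran from -0.080 to 0.059 for Dexi, -0.065 to 0.044 for Nubp1, -0.034 to 0.22 for Adcy9 and -0.11 to 0.35 for Nlrc3. In simulated data the fit called 49% of probe sets changed by 0.5 and 83% of those changed by 1 in KO against WT. In HET against WT it called 4% and 34% of the same probe sets, whose HET change was set to 0.5 of the KO change.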
